A study of Rattus norvegicus with 16 samples.

Results

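Kinesin genes were compared between the prefrontal cortex (PFC) of rats that had received acute footshock (FS) and that of controls. The members are all genes whose probe sets on the Affymetrix Rat Gene 1.0 ST array carried 1 gene symbol that begins with Kif, or with Klc followed by a digit. There were 44 such genes, of 17245 genes named by 1 symbol, on 52 of the 29214 probe sets of the table, and a gene with more than 1 was represented by its probe set of highest mean over the 16 arrays. A further 2 probe sets name a Kif gene together with another gene (Kif1b with Pgd, and Kif14 with Ddx59), so these genes were not analysed here. The rule also takes in Kifap3 and Kifbp, which encode partners of kinesins and no motor.

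There were 8 arrays of FS rats and 8 of controls, each from 1 labelled replicate. Per the study's methods, all were adult male Sprague-Dawley rats, the FS session took 40 min, of which shocks of 0.8 mA filled 20 min, and the PFC was taken as it ended, whereas controls stayed undisturbed in the home cage. FS rats therefore differ from controls by the shocks and by the whole session procedure, which cannot be told apart. The PFC was taken whole, so fewer cells of a type and less RNA per cell cannot be told apart either.

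Kinesins are motor proteins that use ATP to walk along microtubules, the tracks that run through axons and dendrites. In neurons they carry vesicle precursors, mitochondria, receptors and mRNA away from the cell body or back to it, and in dividing cells other members build and pull apart the mitotic spindle. Families are numbered by their motor domain: conventional kinesin (kinesin-1) pairs Kif5 heavy chains with Klc light chains, kinesin-3 motors carry synaptic vesicle precursors and endosomes, and kinesin-14 motors have their motor domain at the C-terminal end and walk to the minus end of the microtubule. The study singled out Kif5b on these same arrays, so its choice is not independent of them.

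The values are log2 expression after robust multi-array averaging (RMA), so a difference of 1 is a doubling. 24 of the 44 genes had a mean above 4 over the 16 arrays, the filter used for testing, and 20 had not. Just inside the filter stood Kif19, with a mean of 4.04, and just outside it Kif27, with 3.96. Values of different probe sets depend on their probes, so levels were compared between arrays and not between genes. Of 14 listed markers of cortical excitatory neurons 12 passed the filter, and of 21 of striatal neurons 18 did, so passing it does not tell the tissue. Control replicate 6 had markers of striatal neurons at a higher level than any other array, and FS replicates 3, 8, 6 and 4 followed it. Without control replicate 6 and FS replicate 3, which lay farthest out in this respect, the same 7 kinesin genes named in the next paragraph had an unadjusted p-value under 0.05 and the same direction, with differences between -0.31 and 0.27.

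No kinesin gene passed the adjusted threshold of 0.05 in limma, where the smallest adjusted p-value of a kinesin gene was 0.501 and that of any probe set 0.495 (0 of 10423 genes called, 0%, and 992 at an unadjusted p-value under 0.05). The differences with the smallest p-values were those of 7 genes. Of kinesin-3, Kif1c, Kif13a and Kif13b had higher means in FS rats, with log2 differences of 0.25, 0.22 and 0.27, and Kif5b of kinesin-1 had one of 0.17. Of kinesin-14, Kifc2 and Kifc3 had lower means, with differences of -0.33 and -0.15, as had the light chain gene Klc4 with -0.18. These 7 of the 24 tested genes (29.2%) had an unadjusted p-value under 0.05 in limma, compared with 9.52% of the 10423 genes tested. By direction, 4 were higher, compared with 3.6% of all genes, and 3 lower, compared with 5.92%. In both directions together, 9 of the 24 kinesin genes (37.5%) had a positive difference and 15 a negative one, close to the 41% positive over all genes. Their median difference was -0.04, and that over all genes -0.02. The family had no common direction.

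**Figure D1:**
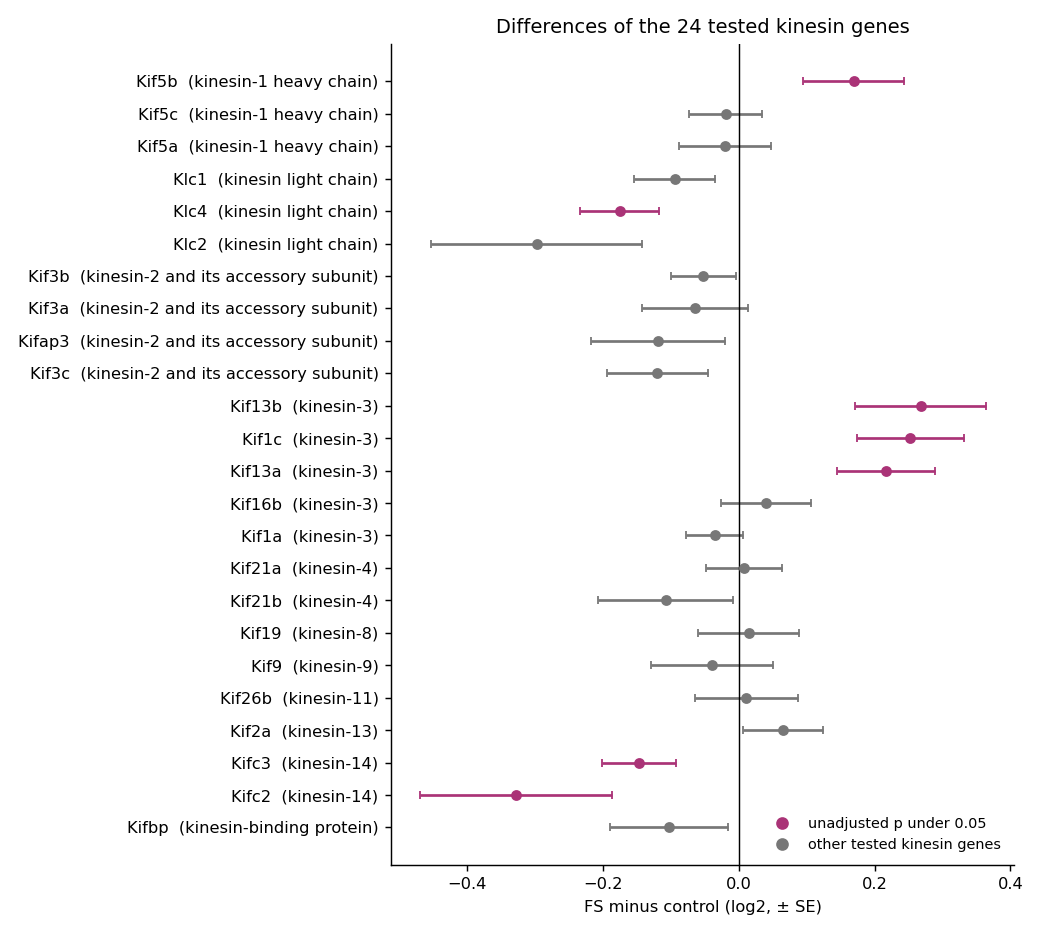
Difference between FS and control rats (x axis, log2 scale, with the standard error) of each of the 24 tested kinesin genes (y axis), grouped by kinesin family; coloured points mark an unadjusted p-value under 0.05 in limma. Kif13b, Kif1c, Kif13a and Kif5b lie above 0, and Klc4, Kifc3 and Kifc2 below it, with the widest error at Klc2 (0.16).

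Promoters of 34 of the 44 genes were found by gene ID in the RefSeq table (assembly GRCr8), which gives 250 bases before and 50 after the start of transcription. The 4 shown are those found there for the genes with an unadjusted p-value under 0.05, and capitals mark the GC box GGGCGG, a common element of housekeeping promoters, on either strand, with overlapping matches joined.
Kif5b (GRCr8, chr17:56185136-56185435, plus strand): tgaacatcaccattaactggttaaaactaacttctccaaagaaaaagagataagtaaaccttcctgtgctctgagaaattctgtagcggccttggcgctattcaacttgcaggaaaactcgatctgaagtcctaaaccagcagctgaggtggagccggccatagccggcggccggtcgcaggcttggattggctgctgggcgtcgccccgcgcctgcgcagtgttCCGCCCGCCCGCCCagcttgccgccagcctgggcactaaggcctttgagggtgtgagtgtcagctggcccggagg
Kif1c (GRCr8, chr10:55912843-55913142, plus strand): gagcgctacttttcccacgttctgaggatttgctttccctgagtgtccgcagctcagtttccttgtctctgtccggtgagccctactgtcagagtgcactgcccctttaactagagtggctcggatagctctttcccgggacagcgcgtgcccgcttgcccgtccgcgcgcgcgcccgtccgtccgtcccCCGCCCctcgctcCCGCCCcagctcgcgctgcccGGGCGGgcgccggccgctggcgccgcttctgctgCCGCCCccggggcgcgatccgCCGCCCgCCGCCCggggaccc
Kif13a (GRCr8, chr17:17972603-17972902, plus strand): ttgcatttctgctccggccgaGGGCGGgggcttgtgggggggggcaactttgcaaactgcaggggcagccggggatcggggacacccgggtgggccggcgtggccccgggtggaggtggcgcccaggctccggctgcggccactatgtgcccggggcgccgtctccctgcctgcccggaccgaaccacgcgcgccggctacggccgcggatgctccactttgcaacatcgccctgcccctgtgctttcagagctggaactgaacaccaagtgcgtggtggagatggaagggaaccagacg
Klc4 (GRCr8, chr9:21834885-21835184, plus strand): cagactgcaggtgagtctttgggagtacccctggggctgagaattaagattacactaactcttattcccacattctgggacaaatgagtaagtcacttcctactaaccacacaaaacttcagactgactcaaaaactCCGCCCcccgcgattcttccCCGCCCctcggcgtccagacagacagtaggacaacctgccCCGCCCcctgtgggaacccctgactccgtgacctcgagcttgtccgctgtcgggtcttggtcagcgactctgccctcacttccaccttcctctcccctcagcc

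GC boxes were found in all 4 windows, with 3 matches for Kif5b, which overlap each other, 6 for Kif1c, 1 for Kif13a and 3 for Klc4. Of the 34 kinesin genes matched, 26 (76.5%) had 1 or more, as did 64.7% of 8607 tested genes with a promoter and 33.1% of all 33469 promoters in the table. Letters known from the binding sites of factors that respond to activity, stress or corticosteroids were searched on both strands as well: the cAMP response element TGACGTCA and its short form TGACG, the heat shock core GAANNTTC, the CEBP site TTGCNNAA, the glucocorticoid receptor element AGAACA and the CArG box of serum response factor. The matches of TGACGTCA contain TGACG and were counted under both. None of these letters were in the 4 windows. Over the 34 genes, TGACG was found in 17 (50%, and in 32.8% of tested genes and 21.2% of all promoters) and TGACGTCA in 4 (11.8%, 3.22% and 1.83%). The heat shock core was found in 1 (2.94%, 5.89% and 8.59%), the CEBP site in 2 (5.88%, 8.50% and 10.6%), AGAACA in 2 (5.88%, 12.6% and 20.7%) and the CArG box in 2 (5.88%, 1.37% and 1.64%). These matches are descriptions of the letters and not binding sites.

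Kif5b, the heavy chain of conventional kinesin that most cell types express, ranged from 8.89 to 9.20 in control arrays, with a median of 8.96, and from 8.87 to 9.40 in FS arrays, with a median of 9.19. FS replicates 6, 3, 8 and 1 were above all controls, with 9.40, 9.39, 9.28 and 9.21, whereas FS replicate 5, with 8.87, was below all controls, so the groups overlapped. The difference was 0.17 ± 0.07 (SE, n = 8 per group), a 1.12-fold level, and 7 of 8 FS arrays exceeded the mean of controls (exact permutation p-value 0.0429, adjusted p-value 0.523 in limma). With 1 array left out it lay between 0.14 and 0.21, and in 9 of those 16 fits the unadjusted p-value was no longer under 0.05: without control replicate 1, 2, 3, 5 or 7, or FS replicate 1, 3, 6 or 8. The 2 heavy chains enriched in neurons differed less, though the genes were not tested against each other. Kif5a had a median of 10.80 in controls and 10.81 in FS rats, a difference of -0.02 ± 0.07 (SE), and Kif5c ranged from 9.76 to 10.12 in controls and from 9.78 to 10.01 in FS rats, a difference of -0.02 ± 0.05.

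The light chains, which link kinesin-1 to its cargo and hold the motor inactive when it is unloaded, were lower in FS rats in all 3 tested members, and the fourth, Klc3, had a mean of 3.13 and was not tested. Klc4 ranged from 4.42 to 4.72 in controls, with a median of 4.57, and from 4.17 to 4.50 in FS rats, with a median of 4.42. All 8 FS arrays were below the control mean and 5 were below every control, and 5 controls were above every FS array. The difference was -0.18 ± 0.06 (SE, n = 8; exact permutation p-value 0.00559, adjusted p-value 0.503 in limma), at levels close to the filter. Klc2 had a larger but less even difference of -0.30 ± 0.16 (exact permutation p-value 0.102). It ranged from 8.98 to 9.68 in controls and from 8.27 to 9.45 in FS rats, where FS replicates 3, 6 and 8 were the lowest with 8.27, 8.72 and 8.79, and 4 FS arrays in all were below every control. A second probe set of Klc2, with a mean of 4.11, differed by 0.07 ± 0.07, in the opposite direction. Klc1 differed by -0.09 ± 0.06 (exact permutation p-value 0.120), with 7 of 8 FS arrays below the control mean.

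**Figure D2:**
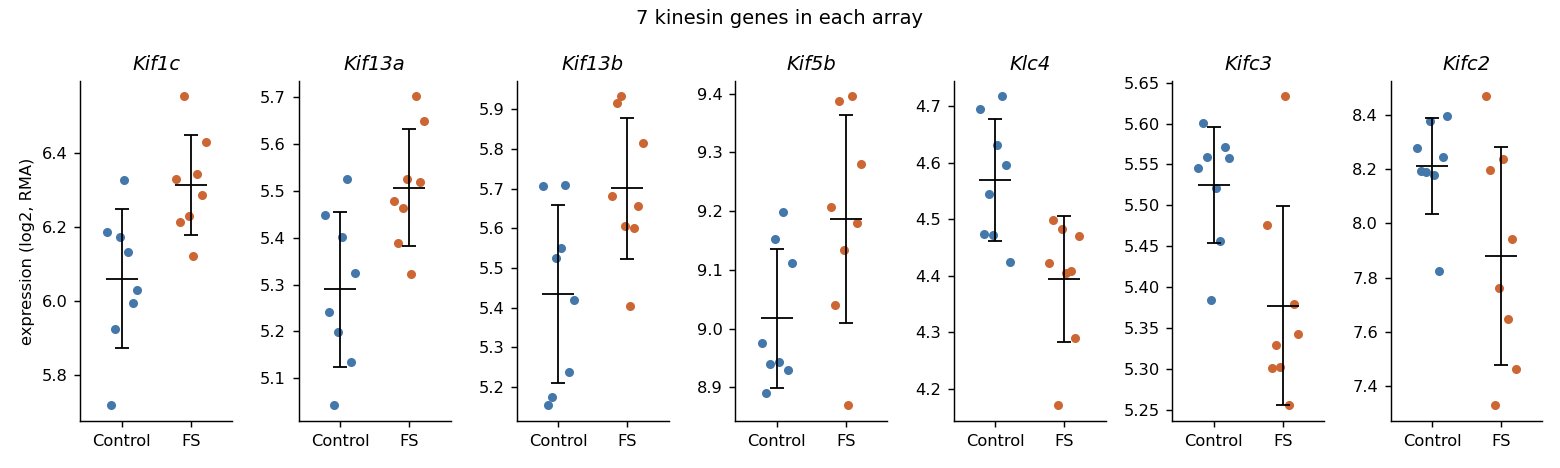
Expression (y axis, log2 after RMA, a separate scale for each gene) of the 7 kinesin genes with an unadjusted p-value under 0.05, in each of 8 control and 8 FS arrays (points), with the mean and the SD of each group (bars). In Kif1c and Kif13a all 8 FS arrays lie above the control mean, in Klc4 all 8 below it, and in each of the 7 genes the groups overlap.

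Kinesin-3 held the 3 highest differences among the tested kinesin genes, together with 2 members that differed little. Kif1c, which moves vesicles along microtubules in many cell types, ranged from 5.72 to 6.33 in controls (median 6.08) and from 6.12 to 6.55 in FS rats (median 6.31). The 4 highest FS arrays were above all controls and the 4 lowest control arrays were below all FS arrays. The difference was 0.25 ± 0.08 (SE, n = 8 per group), a 1.19-fold level, and all 8 FS arrays were above the control mean (exact permutation p-value 0.00653, adjusted p-value 0.501 in limma). Kif13a, a motor of endosomal and Golgi vesicles, ranged from 5.04 to 5.53 in controls (median 5.28) and from 5.32 to 5.70 in FS rats (median 5.50). 3 FS arrays were above all controls and 4 controls below all FS arrays. Its difference was 0.22 ± 0.07 (SE), and 8 of 8 FS arrays exceeded the mean of controls (exact permutation p-value 0.0110, adjusted p-value 0.503 in limma). Kif13b, the close paralogue of Kif13a that binds discs large scaffolds, ranged from 5.15 to 5.71 in controls (median 5.47) and from 5.40 to 5.93 in FS rats (median 5.67). Control replicates 2, 3 and 7 were below all FS arrays, with 5.15, 5.18 and 5.24. The difference was 0.27 ± 0.10 (SE), a 1.20-fold level (exact permutation p-value 0.0219, adjusted p-value 0.509 in limma). Kif1a, the neuronal carrier of synaptic vesicle precursors, differed by -0.04 ± 0.04 and had ranges of 9.84 to 10.03 in controls and 9.86 to 10.02 in FS rats. Kif16b, a motor of early endosomes, differed by 0.04 ± 0.07.

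Both tested kinesin-14 genes were lower in FS rats. Kifc3, a minus end motor known from epithelial cells, ranged from 5.38 to 5.60 in controls (median 5.55) and from 5.26 to 5.63 in FS rats (median 5.34). 6 FS arrays were below all controls, and FS replicate 5 was above all of them. The difference was -0.15 ± 0.05 (SE, n = 8; exact permutation p-value 0.0138, adjusted p-value 0.509 in limma). Kifc2, a minus end motor of neurons known from mouse, ranged from 7.82 to 8.40 in controls (median 8.22) and from 7.33 to 8.47 in FS rats (median 7.85). The FS arrays were spread more widely, with an SD of 0.40 compared with 0.18, since replicates 3, 8, 6 and 4 were below all controls with 7.33, 7.46, 7.65 and 7.76 while replicate 1 was above all of them. The difference was -0.33 ± 0.14 (SE), a 0.796-fold level (exact permutation p-value 0.0542, adjusted p-value 0.523 in limma). With 1 array left out it lay between -0.41 and -0.25, and in 6 of those 16 fits the unadjusted p-value was no longer under 0.05: without control replicate 4 or 8, or FS replicate 3, 4, 6 or 8. The other 5 of the 7 genes kept an unadjusted p-value under 0.05 in all 16. Kifc1, the spindle motor of this family, had a mean of 3.19 and was not tested.

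The kinesin-2 genes encode the Kif3a and Kif3b heavy chains, the alternative partner Kif3c and the accessory subunit Kifap3, which joins the pair to cargo. All 4 had small negative differences and none had an unadjusted p-value under 0.05 in limma. Kif3c differed by -0.12 ± 0.07 (SE), Kifap3 by -0.12 ± 0.10, Kif3a by -0.06 ± 0.08 and Kif3b by -0.05 ± 0.05. Among the kinesin-4 genes, Kif21b, a brake on microtubule growth, differed by -0.11 ± 0.10 and Kif21a by 0.01 ± 0.06. Kif2a, a kinesin-13 that takes microtubules apart from their ends, differed by 0.07 ± 0.06, and Kifbp, which binds motor domains and blocks some of them, by -0.10 ± 0.09. The cilia motor genes Kif9 and Kif19 differed by -0.04 ± 0.09 and 0.01 ± 0.07. Kif26b of kinesin-11 differed by 0.01 ± 0.08, and its other probe sets above the filter by -0.11 and -0.04, while a further one under the filter differed by -0.19.

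The 20 genes under the filter had means from 2.65 to 3.96 and were not tested. Most encode motors of cell division: Kif11, Kif15, Kif18a, Kif18b, Kif20a, Kif20b, Kif22, Kif23, Kif2b, Kif2c, Kif4a, Kif4b and Kifc1. Others are Kif7, which acts in hedgehog signalling, the cilium gene Kif24, and Kif6, Kif12, Kif26a, Kif27 and Klc3. Only Kif27 had any array above 4. Their differences lay within 0.16 of 0, with 15 positive and 5 negative. No share over all genes under the filter is at hand for comparison, so no conclusion is drawn from these counts. The largest was that of Kif15, from 3.15 to 3.37 in controls and from 3.19 to 3.66 in FS rats. Kif24 ranged from 2.93 to 3.10 in controls and from 3.08 to 3.25 in FS rats, where 7 of 8 arrays were above all controls. Of 19 markers of dividing cells, 2 passed the same filter. Mki67 differed by 0.50 ± 0.18 (SE), with a control mean of 3.83 and an FS mean of 4.33. It passed the filter only through the FS arrays, so no conclusion is drawn from its difference. Tpx2 differed by -0.21 ± 0.20.

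Among other genes of transport along microtubules, 0 passed the adjusted threshold in limma. Of dynein and dynactin, the motor complex that walks to the minus end, 9 of 22 tested genes were higher and 13 lower, with 1 in each direction at an unadjusted p-value under 0.05: Dynll2, a light chain, at 0.15 ± 0.07 (SE) and Actr1a, the actin-related filament of dynactin, at -0.20 ± 0.09. Of a list of cargo adaptors of microtubule motors, which includes Bicd1, Bicd2, Hook1 and Hook3, 8 of 21 were higher and 13 lower. Mapk8ip3 (JIP3), a partner of the light chains, stood at -0.13 ± 0.05 and Madd, an adaptor of kinesin-3, at -0.15 ± 0.07, and no other of this list had an unadjusted p-value under 0.05. Of tubulins and microtubule binding proteins, 10 of 30 were higher and 20 lower, among them the neuronal tubulin gene Tubb3 at -0.13 ± 0.06 and Tubb5 at -0.13 ± 0.06. The median differences of the 3 lists were -0.01, -0.08 and -0.06, beside -0.02 over all genes. Over all 10423 genes tested, 41% were higher and 9.52% had an unadjusted p-value under 0.05 in limma, so these counts do not set the lists apart.

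Markers of cell types were compared between the groups as well. Each list was given a score, the average of its tested genes after each gene had been centred on 0 over all arrays. The tested genes of myelin and oligodendrocytes had a higher mean in FS rats in 19 of 19 (median difference 0.40), and 17 had an unadjusted p-value under 0.05 in limma. The myelin score ranged from -0.58 to 0.23 in controls and from -0.01 to 0.37 in FS rats, a difference of 0.36 (exact permutation p-value 0.00544, adjusted p-value 0.0653 over 12 lists). Control replicates 2, 3 and 7, the lowest in Kif13b, were the lowest in this score, with -0.55, -0.53 and -0.58. All 18 tested genes of striatal medium spiny neurons were higher as well, with scores from -0.85 to 1.64 in controls and from -0.92 to 1.35 in FS rats (difference 0.74, exact permutation p-value 0.107, adjusted p-value 0.320). All 12 tested genes of cortical excitatory neurons were lower, with scores from -0.78 to 0.47 in controls and from -0.93 to 0.34 in FS rats (difference -0.32, exact permutation p-value 0.179, adjusted p-value 0.412). The lowest mean of a tested marker in these lists was 5.26 for myelin, 5.22 for striatal and 4.60 for excitatory genes, the last not far above the filter. Only genes that passed the filter were tested, so no tested marker could lie near the lowest values of the array. Genes of oligodendrocyte precursors were higher in 7 of 7, and 3 had an unadjusted p-value under 0.05 in limma. Their score differed by 0.13 (exact permutation p-value 0.0314, adjusted p-value 0.188). Endothelial and mural genes were higher in 6 of 10, microglial genes in 6 of 10, astrocyte genes in 8 of 11 and interneuron genes in 7 of 10.

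Kinesin genes and scores were then compared across arrays. To leave the group difference out, the mean of each group was removed from both measures, and Pearson's r and Spearman's rho were tested by permutation within groups. The arrays fell into 2 clusters in the myelin score, with control replicates 2, 3 and 7 between -0.58 and -0.53 and the other 13 arrays between -0.05 and 0.37. In the 3 low arrays Kif13b was between 5.15 and 5.24, below every other array, Kif1c had its 3 lowest values there and Kif13a its 2 lowest. The gap took up 50.1% of the range of the score, so no r over all 16 arrays is given for it, and the relations were computed within the 13 arrays (5 controls and 8 FS rats). The widest gap took up 32.3% of the range of the excitatory neuron score and 20.6% of that of the striatal score, and for these both the value over all arrays and that on each side of the gap with 8 or more arrays are given. These choices were made after seeing the data. Of 28 relations within such sets of arrays, 2 had an adjusted p-value under 0.05 by r and 1 by rho.

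Within the 13 arrays no kinesin gene passed with the myelin score after adjustment. Kif5b had r = 0.647 (rho = 0.571; permutation p-values 0.0235 and 0.0565, adjusted p-values 0.164 and 0.396), and 0.718 without the 2 arrays farthest from the median score, control replicate 1 and FS replicate 1. Without the same 2 arrays r was 0.725 for Kif13b, 0.541 for Kif1c and 0.514 for Kif13a. For Kifc2 it was -0.868 (-0.322 with them), for Kifc3 -0.585 and for Klc4 0.048. Among the FS rats alone, Kif5b had r = 0.626 (rho = 0.548; exact permutation p-values 0.0942 and 0.171). Kif1c had r = 0.702 there (rho = 0.714; exact permutation p-values 0.0516 and 0.0576), Kif13b 0.504 and Kif13a 0.289. Kif13b had r = 0.470 within the 13 arrays (rho = 0.401; permutation p-values 0.128 and 0.199, adjusted p-values 0.360 and 0.506) and Kif1c r = 0.444 (rho = 0.429; permutation p-values 0.151 and 0.167, adjusted p-values 0.360 and 0.503). Kif13a had r = 0.316 (rho = 0.297; adjusted permutation p-values 0.459 and 0.572).

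**Figure D3:**
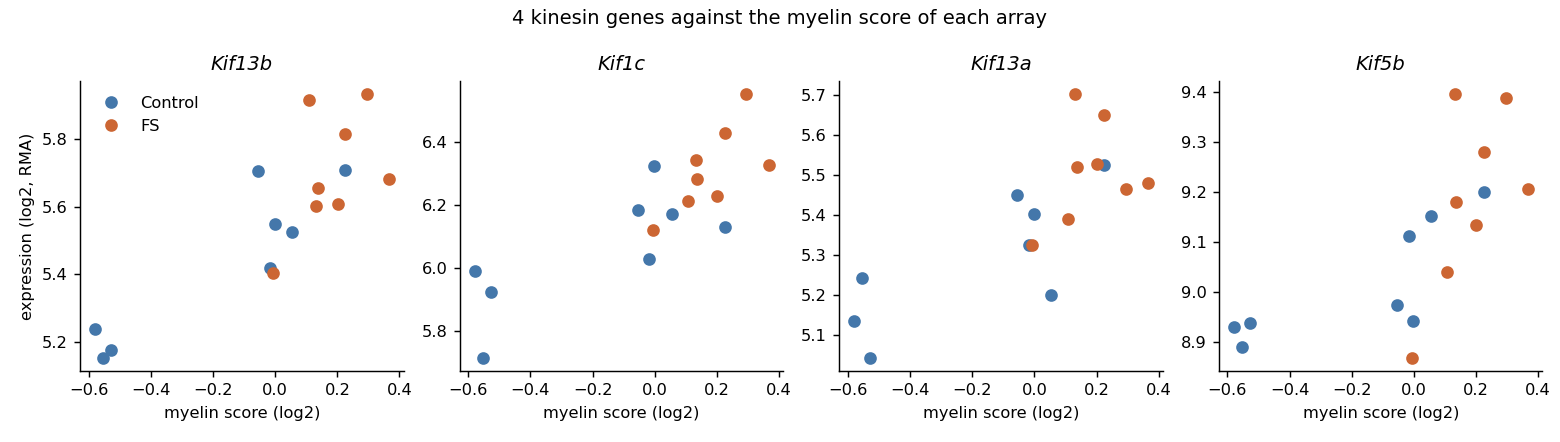
Expression of Kif13b, Kif1c, Kif13a and Kif5b (y axes, log2 after RMA, a separate scale for each gene) against the myelin score of the same array (x axis, log2 units relative to the mean of the 16 arrays), with 8 control and 8 FS arrays as points. Control replicates 2, 3 and 7 form a cluster of their own, between -0.58 and -0.53, in the lower range of each gene, and the other 13 arrays lie between -0.05 and 0.37.

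Kifc2 was compared with the excitatory neuron score, where control replicate 6 and FS replicates 3 and 8 lay between -0.93 and -0.78 and the other 13 arrays between -0.32 and 0.47. Kifc2 was 7.82, 7.33 and 7.46 in these 3 arrays, the lowest of its group in controls and the 2 lowest among FS rats. Over all 16 arrays, in a family of 34 relations, Kifc2 ran with the score at r = 0.823 (rho = 0.721; permutation p-values 0.000460 and 0.00666, adjusted p-values 0.00521 and 0.0323), and it passed by r with any single array left out. Without FS replicates 3 and 8 r was 0.660, and within FS rats it was 0.864 (exact permutation p-value 0.00496). Within controls r was 0.806 (exact permutation p-value 0.0848) and rho 0.119. Within the 13 other arrays (7 controls and 6 FS rats) r was 0.523 (rho = 0.264; permutation p-values 0.167 and 0.472, adjusted p-values 0.360 and 0.639), which does not show that the relation is absent there.

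Kif13a ran against the excitatory neuron score at r = -0.625 over all arrays (rho = -0.715; adjusted permutation p-values 0.0227 and 0.0257). This relation passed by r in 13 of the 16 sets with 1 array left out. It did not pass with each array centred on its median (r = -0.524, adjusted permutation p-value 0.0837). Within the 13 arrays r was -0.775 (rho = -0.731; permutation p-values 0.00212 and 0.00728, adjusted p-values 0.0297 and 0.102). Kif13b and Kif5b had r = -0.618 and -0.667 over all arrays (rho = -0.594 and -0.582). Adjusted permutation p-values were 0.0227 for both by r, and 0.0400 and 0.0571 by rho, so Kif5b did not pass by rho. By r they passed in 12 and 13 of the 16 sets with 1 array left out. After the same centring Kif13b passed and Kif5b did not (adjusted permutation p-values 0.0472 and 0.0956 for r). Within the 13 arrays r was -0.406 and -0.512 (adjusted permutation p-value 0.360 for both).

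In the striatal score the widest gap lay between -0.60 and -0.08, with 8 arrays on each side, and control replicate 6 stood apart from the other controls. Kifc2 ran against the score over all 16 arrays at r = -0.693 (rho = -0.653; permutation p-values 0.00347 and 0.0126, adjusted p-values 0.0182 and 0.0389), or -0.549 without control replicate 6 and FS replicate 3. By r it passed in 14 of the 16 sets with 1 array left out. With control replicate 6 alone left out, r was -0.655 and did not pass after adjustment (adjusted permutation p-value 0.127). Within the 8 arrays above the gap (2 controls and 6 FS rats) r was -0.891 (rho = -0.905; exact permutation p-values 0.000694 and 0.00139, adjusted p-values 0.0194 and 0.0389), where the first is the smallest these permutations can give, and -0.969 without control replicate 6 and FS replicate 1. Within the 8 arrays below it (6 controls and 2 FS rats) r was 0.289 (rho = 0.286; exact permutation p-values 0.722 and 0.829). Kif13a, Kif13b and Kif5b ran with the striatal score over all arrays at r = 0.625, 0.654 and 0.578 (rho = 0.571, 0.703 and 0.50, adjusted permutation p-values 0.0297, 0.0210 and 0.0474 for r and 0.0558, 0.0323 and 0.109 for rho). None of these 3 passed without control replicate 6 or on either side of the gap. With each array centred on its median, Kif13b passed by r (adjusted permutation p-value 0.0417). Kif13a and Kif5b then did not (adjusted permutation p-values 0.0827 and 0.129). With the endothelial and mural score no relation of the 7 genes passed.

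Subunits of 1 motor were compared in the same family of 34. Kifap3 followed Kif3a closely, at r = 0.828 (rho = 0.841; permutation p-values 0.000330 and 0.000250, adjusted p-values 0.00521 and 0.00850), and at 0.867 without control replicate 6 and FS replicate 2. Kif5a and Kif5c followed each other at r = 0.795 (rho = 0.659; permutation p-values 0.000380 and 0.00898, adjusted p-values 0.00521 and 0.0382), and at 0.677 without FS replicates 3 and 8. Both relations passed with any single array left out. Kif5b followed neither of them, at r = -0.362 (rho = -0.309) with Kif5a and -0.286 (rho = -0.297) with Kif5c (adjusted permutation p-values 0.299 and 0.363), and ran against Klc1 at r = -0.659 (rho = -0.635; permutation p-values 0.00694 and 0.0124, adjusted p-values 0.0227 and 0.0389), or -0.606 without FS replicates 3 and 6. The last relation passed in 13 of the 16 sets with 1 array left out. It did not pass with each array centred on its median (r = -0.594, adjusted permutation p-value 0.0620). Kif3a and Kif3b had r = 0.568 (rho = 0.565; adjusted permutation p-values 0.0614 and 0.0558). After the same centring r was 0.729 and passed (adjusted permutation p-value 0.0148), so both relations depended on this choice.

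The differences were computed again with the myelin or the striatal score as a covariate. With the myelin score, those of Kif1c, Kif13a, Kif13b and Kif5b became 0.08 ± 0.08, 0.07 ± 0.08, 0.03 ± 0.09 and 0.03 ± 0.08 (SE). With the striatal score they were 0.19 ± 0.08, 0.14 ± 0.07, 0.15 ± 0.08 and 0.09 ± 0.07. Kifc2 went to -0.26 ± 0.18 and -0.14 ± 0.11, and Kifc3 to -0.08 ± 0.07 and -0.10 ± 0.06. Klc4 had a difference of -0.20 ± 0.08 with the myelin score and -0.21 ± 0.06 with the striatal score. These fits use a common slope for both groups. Within controls Klc4 ran with the striatal score at r = 0.757 (rho = 0.881; exact permutation p-values 0.000446 and 0.00724). Within FS rats r was -0.00096 (rho = 0.048; exact permutation p-values 0.999 and 0.935), so a common slope may describe Klc4 poorly. Each score differed between the groups itself, so a fit that includes it assigns to the score whatever the score and the group share, and for the myelin score it rests in part on the 3 low controls. The part of cell composition in the kinesin differences was not tested beyond these values.

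**Figure D4:**
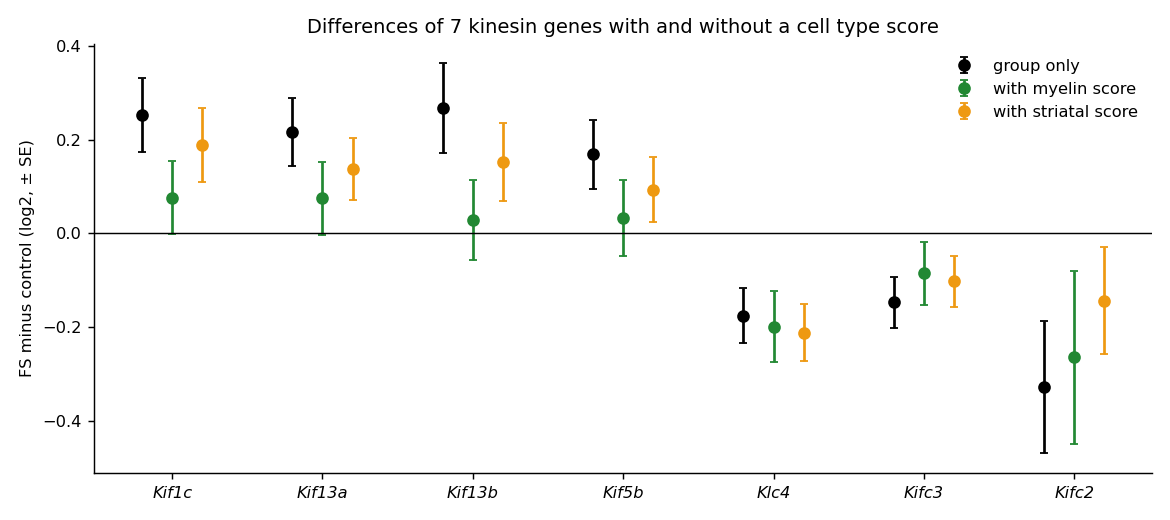
Difference between FS and control rats (y axis, log2 scale, with the standard error) of the 7 kinesin genes (x axis) fitted with the group alone or with 1 of the myelin and striatal scores added. With the myelin score the 4 higher genes lie between 0.03 and 0.08, and Klc4 lies at -0.20.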

How the data were processed

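Total RNA of the PFC of 16 rats was hybridised to 1 Affymetrix Rat Gene 1.0 ST array each. The authors applied RMA (package oligo, version 1.58.0) to the scanner files, so the deposited values are normalised log2 intensities, from which any change shared by the bulk of genes has been removed. Array medians lay between 4.05 and 4.15, and correlations between arrays between 0.981 and 0.997. No label names a batch. The number of arrays limits the precision.

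Gene symbols came from the annotation of the platform, and all 44 kinesin gene IDs had the same symbol in the RefSeq gene table. Groups and replicate numbers came from the sample titles. Of the 18644 probe sets with 1 symbol, the 11352 with a mean above 4 (10423 genes) were fitted with limma (version 3.58.1, R version 4.3.3, group only) and Benjamini-Hochberg adjustment over all of them, which is how the authors' test and filter were read. Single genes were also tested exactly and two-sided over all 12870 ways to split the 16 arrays, which can give no p-value below 0.000155. Correlations used 100000 permutations, two-sided. The fit was tested on simulated data. All tested members are named, with full statistics for those with an unadjusted p-value under 0.05, the extreme differences and the kinesin-1 subunits. The members and lists were chosen with earlier results of these data known. Alternatives were other filters, all probe sets, the mean of a gene's probe sets, centring, other variance models, the replicate block, each array left out and 2 scores as covariates, and 2 more were added after seeing the data: both arrays farthest out in the striatal score left out, and relations within sets of arrays on 1 side of the widest gap in a score.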

Additional observations from a re-analysis of the deposited data

Results flagged for a closer look

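A sample far from the others of its group, by Dixon's test, was found in 5 of 72 groups of 8 arrays (24 genes and 12 scores in both groups), and chance gives about 1 in 20. Kifc2 was 7.82 in control replicate 6, and from 8.18 to 8.40 in the other controls. The same array had the highest striatal score of the controls, 1.64 compared with -0.85 to 0.16 in the others, and the lowest excitatory neuron score, -0.78 compared with 0.08 to 0.47. FS replicate 3 had a score of -0.15 for the list of cargo adaptors, and the other FS arrays lay between -0.03 and 0.05. Control replicate 1 had a microglial score of 0.28, and the other controls lay between -0.15 and -0.004.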

How the results depend on the processing

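In limma 0 kinesin genes passed the adjusted threshold under any of 28 settings, where the smallest adjusted p-value of a kinesin gene was 0.197. Of 667 differences of single genes, 40 changed sign, none of them among the 7 genes with an unadjusted p-value under 0.05. The cause of no change was tested.

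Without the filter, 24 of 44 genes were higher in FS rats and the median difference was 0.0095, with no share over all unfiltered genes at hand for comparison. With the myelin score as a covariate, 315 genes of all tested had an unadjusted p-value under 0.05, with 1 kinesin gene higher (Kif2a) and 1 lower (Klc4), 14 were above 0 and their median was 0.020. The differences of Kif19, Kif3a, Kif3b, Kif5a, Kif5c, Kifap3 and Kifbp became -0.023, 0.074, 0.044, 0.0027, 0.012, 0.042 and 0.056. With the striatal score there were 447 genes, 2 kinesin genes higher (Kif1c and Kif2a) and 1 lower (Klc4), 14 above 0 and a median of 0.020, and Kif21b, Kif26b, Kif3a, Kif5a, Kif5c, Kifap3 and Kifbp became 0.017, -0.040, 0.027, 0.064, 0.043, 0.027 and 0.022. The mean of its probe sets gave -0.045 for Kif26b. Centring gave -0.00013 for Kif21a, and array weights gave -0.018 for Kif21a and -0.013 for Kif26b. Without both control replicate 6 and FS replicate 3, an alternative chosen after seeing the data, 1 probe set passed the adjusted threshold, 1 list score and 5 of the 34 relations over all arrays passed (15 with all arrays, counted here with those of the myelin score), and Kif26b was -0.0063.

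With 1 array left out, probe sets past the adjusted threshold numbered 0 to 1 (1 without FS replicate 2), and genes with an unadjusted p-value under 0.05 numbered 613 (without FS replicate 3) to 1755 (without control replicate 6). Kinesin genes at that threshold numbered 3 to 4 higher and 2 to 5 (5 without FS replicate 5) lower, 6 to 10 of 24 were above 0, the median lay between -0.05 and -0.03, and 5 to 8 passed the exact test. List scores numbered 0 to 2 (1 without control replicate 4, 2 without control replicate 6) and relations 3 (without FS replicate 5) to 16. Kif19 ranged from -0.0085 to 0.056, Kif21a from -0.021 to 0.029, Kif26b from -0.023 to 0.050, Kif5a from -0.051 to 0.0094 and Kif5c from -0.043 to 0.0079.

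No label pairs the rats by replicate number. Of 8 pairs of arrays with the same number, 4 deviated together (correlation over 0.1, range -0.31 to 0.49). Only 1 control correlated best with its own number. These correlations cannot exclude that rats of the same number shared some handling. With the replicate block, 4 kinesin genes were higher and 3 lower at an unadjusted p-value under 0.05, of 1158 genes in all, and 0 passed the adjusted threshold. The number of arrays limits what could be detected: the median standard error of a tested kinesin gene was 0.074 on the log2 scale.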
